A study of Rattus norvegicus with 192 samples.

Results

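Pvalb, Sst, Npy, Vip, Cck, Nos1, Calb2, Lhx6 and Chodl are 9 genes that mark interneurons or encode their peptides, chosen by name from the 38354 genes of an RNA-seq table of the rat nucleus accumbens core. They were followed in the libraries with at least 100 CPM (counts scaled to the same library total) of Drd1, the D1 dopamine receptor gene of striatal projection neurons, which holds for 147 of the 159 libraries of the table. All 9 had a mean of at least 1 CPM there, the filter that left 15326 genes to be tested against Slc17a7, whose own gene was left out.

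The polyA RNA came from outbred heterogeneous stock rats, profiled for genetic analyses, and the labels name no treatment, genotype group, sex, age or batch. Libraries differ in their labels only by the format of the rat identifier and by notes of correction or removal. Among the 147 libraries, 12 had a label corrected from the genotype to the E21 format, 76 carried an E21 identifier, 56 an all-digit (numeric) one and 2 an AA1 one, and 1 was corrected to another format. Of 192 labelled libraries, 33 carry a note of removal and were not analysed here. Each library carries its own rat identifier, so p-values measure the spread between these libraries, and formats may stand for batches, which cannot be told apart from them.

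Striatal interneurons are a small share of the neurons around the projection neurons, and most release GABA. Parvalbumin (Pvalb), a calcium buffer, marks fast-spiking cells. Somatostatin (Sst), neuropeptide Y (Npy) and neuronal nitric oxide synthase (Nos1) are found together in low-threshold-spiking cells, and Chodl, which encodes a membrane protein, marks the Sst and Nos1 cells in the mouse cortex. Lhx6 is a transcription factor that in the mouse directs the fate of Pvalb and Sst interneurons. Calretinin (Calb2) is the calcium buffer of another class. Vasoactive intestinal peptide (Vip) and cholecystokinin (Cck) are best known from interneurons of the cortex and hippocampus, and Cck is also made by cortical projection neurons. Slc17a7 encodes the vesicular glutamate transporter of those cortical neurons, and so serves here as the measure of cortical RNA in a library. In bulk tissue, fewer cells of a type and less RNA per cell cannot be told apart.

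RefSeq promoter windows in the rat build GRCr8 were at hand for 7 of the 9 genes, and those of 3 are shown, for the Sst and Npy pair that varied together most closely and for Vip, the gene with the steepest slope on Slc17a7 among those with a window. Each runs from 150 bases before the annotated start site to 30 bases from it on, 5′ to 3′ on the gene's own strand, and capitals mark the motifs searched. Sst lies at chr11:90461396-90461575, Npy at chr4:80211961-80212140 and Vip at chr1:44470330-44470509, all on the + strand. The windows of Sst and Npy start from the gene position that the deposited table gives, and the start site of Vip lies 248 bases from it.
Sst: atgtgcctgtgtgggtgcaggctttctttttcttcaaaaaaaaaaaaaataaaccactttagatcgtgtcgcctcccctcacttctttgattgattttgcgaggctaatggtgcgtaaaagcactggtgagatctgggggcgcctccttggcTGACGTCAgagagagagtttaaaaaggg
Npy: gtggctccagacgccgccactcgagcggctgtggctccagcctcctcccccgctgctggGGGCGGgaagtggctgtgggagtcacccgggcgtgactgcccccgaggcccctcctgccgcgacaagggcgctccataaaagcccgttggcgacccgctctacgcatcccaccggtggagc
Vip: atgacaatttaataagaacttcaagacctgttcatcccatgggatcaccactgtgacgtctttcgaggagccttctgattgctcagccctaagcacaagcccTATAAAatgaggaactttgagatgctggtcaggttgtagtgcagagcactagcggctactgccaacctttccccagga

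The 3 motifs searched on both strands were TGACGTCA, the palindromic cyclic AMP response element, TATAAA, the TATA box, and GGGCGG, the GC box, which share no letters by overlap in these windows. Over windows of the same length, TGACGTCA occurs in 1.55% of 33469 promoters, TATAAA in 8.80% and GGGCGG in 28.1%. The Sst window holds the first at position 3 counted from the start site as 1. Npy holds a GC box at -91 and Vip a TATA box at -48. Of the windows not shown, that of Nos1 holds TGACGTCA at -9, but its annotated start site lies 84534 bases from the position in the deposited table. These matches describe the letters only.

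Each gene's spread over the 147 libraries is given before its relation to Slc17a7, since levels of different genes are not scaled by transcript length here and are not ranked against each other. Slc17a7 itself spanned 1.92 to 1148 CPM, with a median of 197 CPM. SDs are of log2 of CPM plus 1, which understates the spread of low genes. By this measure Cck had the widest spread of the 9, at an SD of 1.46. Its lowest value was 5.03, its median 59.1 and its highest 348 CPM. Vip came next with an SD of 0.95, from 0.222 through a median of 3.10 to 19.7 CPM. As highest over lowest CPM, Vip had 88.7 and Cck 69.3, so the order of these 2 depends on the measure. Among all tested genes these spreads stood at the 99.8th percentile for Cck and the 99.4th for Vip.

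Pvalb had an SD of 0.56 and ran from 4.30 through a median of 14.3 to 39.4 CPM. The genes of the low-threshold-spiking type were steadier than these, but still varied more than most tested genes. Their SDs stood between the 82.8th percentile for Chodl and the 91.4th for Nos1. Nos1 had an SD of 0.41 and lay between 37.9 and 141 CPM (median 90.9), Npy an SD of 0.37 between 59.2 and 371.9 CPM (median 98.3), and Sst an SD of 0.36 between 126 and 802 CPM (median 216). Chodl had an SD of 0.34, from 1.20 to 6.45 CPM around a median of 3.63. As highest over lowest CPM, Chodl had 5.39 and Nos1 3.72, so their order also depends on the measure. Calb2 had an SD of 0.37, from 7.82 to 29.6 CPM around a median of 15.4. Lhx6 was the steadiest, with an SD of 0.25, from 11.6 to 36.6 CPM around a median of 20.0. The lowest Vip value rests on 5.00 expected counts and the lowest Chodl value on 22.0, so single libraries of these genes are imprecise, while the lowest of Sst rests on 2439.

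The upper end of Sst and Npy was set by 3 E21 libraries. Their Sst levels were 802, 559 and 483 CPM, and the next library had 379 CPM. The same 3 libraries also had the 3 highest levels of Npy, at 371.9, 273 and 216 CPM. Their Slc17a7 levels were 420, 369 and 382 CPM and their totals 21.6, 17.3 and 17.6 M expected counts.

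**Figure D1:**
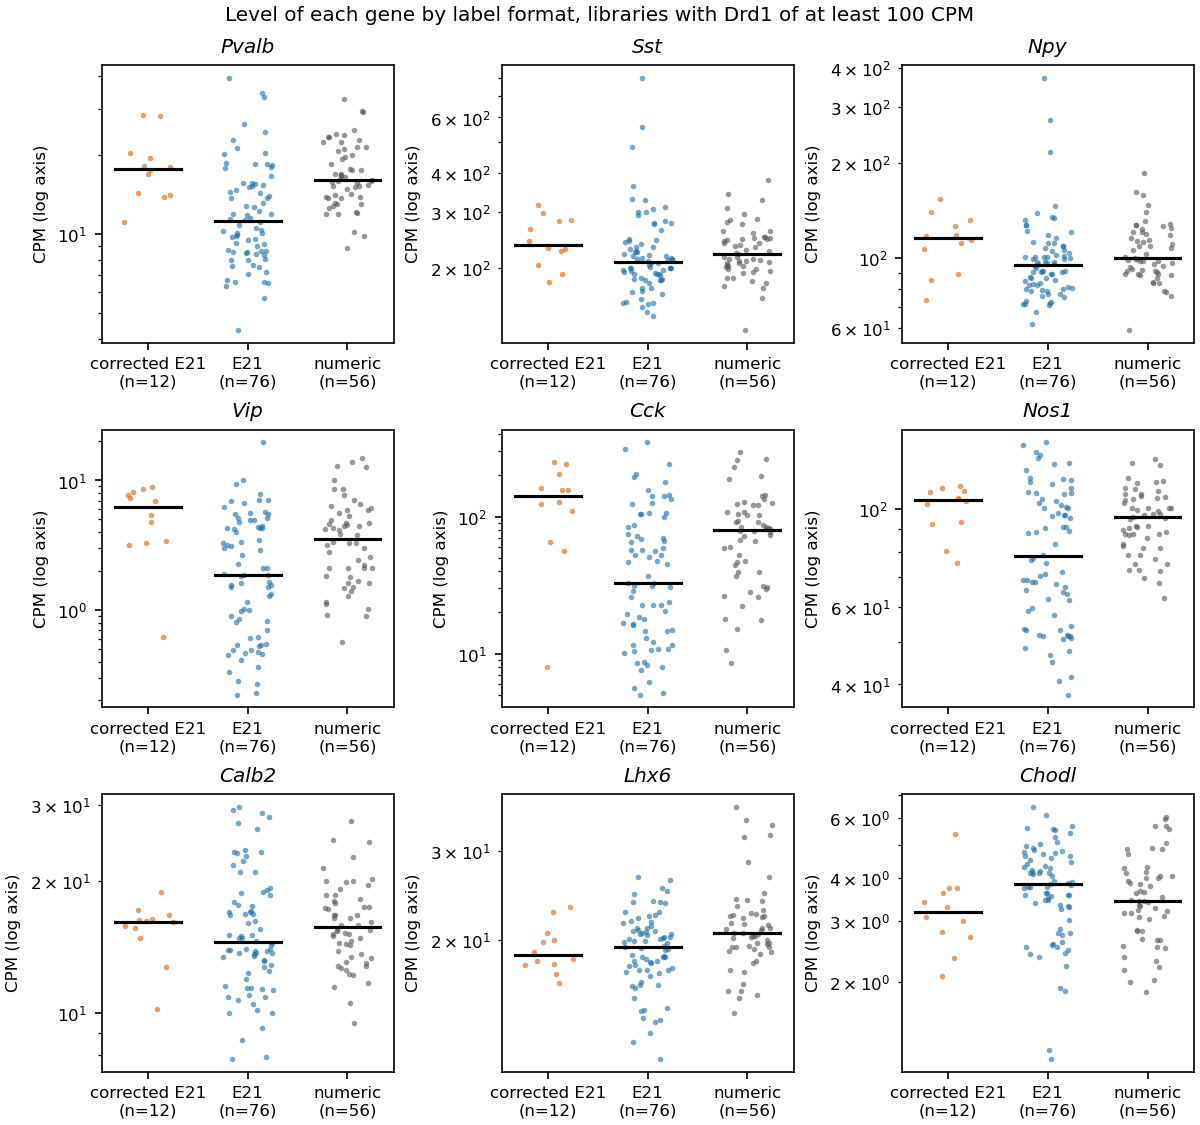
Level of each gene in CPM (log axis), 1 point per library, for 12 corrected E21, 76 E21 and 56 numeric libraries with at least 100 CPM of Drd1; horizontal lines are medians. Cck and Vip spread the most within each format, and 3 E21 libraries stand above the rest in Sst and Npy.

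The relation of each gene to the Slc17a7 level asks how far it follows this measure of cortical RNA. Where the Slc17a7 RNA of a library came from was not tested. Cck and Vip followed it most steeply, Pvalb less so, and Sst and Npy weakly. Lhx6 and Chodl ran against it, and Nos1 and Calb2 passed in neither direction, though Nos1 passed as a rise in a pair of alternatives. In all, 5 of the 9 genes rose with Slc17a7 and 2 fell, where 20.4% of all tested genes rose and 23.9% fell, at an adjusted p under 0.05 in limma. A slope is the log2 change of a gene per doubling of Slc17a7, both as CPM plus a pseudocount of 1, and the median slope of all tested genes was -0.0022.

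Cck was at 10.9 and 5.61 CPM in the pair of libraries with the least Slc17a7 and at 310 and 259 CPM in the pair with the most. Its slope of 0.73 (SE 0.018, limma adjusted p = 1.30e-78) was the 4th largest positive one of all tested genes, and Slc17a7 accounted for 91.5% of its variance. The fitted line gives 131 CPM of Cck at 500 CPM of Slc17a7 and 7.24 CPM at 10 CPM. Vip was at 0.268 and 0.526 CPM in the pair of libraries with the least Slc17a7 and at 19.7 and 13.9 CPM in the pair with the most. Its slope was 0.44 (SE 0.018, limma adjusted p = 2.46e-51), the 23rd largest, and 80.1% of its variance went with Slc17a7. The gap to Cck depends on the pseudocount. With 0.1 CPM in place of 1, the slope was 0.63 for Vip and 0.73 for Cck. The fitted line gives 5.76 CPM of Vip at 500 CPM of Slc17a7 and 0.248 CPM at 10 CPM. A straight line is an approximation for both peptides, since all 8 libraries under 10 CPM of Slc17a7 lay above it for each.

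Pvalb, with a slope of 0.21 (SE 0.016, limma adjusted p = 3.03e-24), was fitted at 18.6 CPM at 500 CPM of Slc17a7 and 7.81 CPM at 10 CPM. Slc17a7 accounted for 52.8% of its variance. The line of Pvalb is also an approximation, since 7 of the 8 libraries under 10 CPM of Slc17a7 lay above it. The slope of Pvalb was the 131st largest. The slopes of Sst, at 0.070 (SE 0.014, limma adjusted p = 1.51e-05), and Npy, at 0.073 (SE 0.014, limma adjusted p = 9.11e-06), were about equal. Slc17a7 accounted for 14.0% and 14.6% of the variance of Sst and Npy. Fitted Sst was 246 CPM at 500 CPM of Slc17a7 and 188 CPM at 10 CPM, a small change beside the range of the gene.

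Chodl had a slope of -0.065 (SE 0.013, limma adjusted p = 2.15e-05) and was fitted at 3.21 CPM at 500 CPM of Slc17a7 and 4.39 CPM at 10 CPM. Lhx6 had a slope of -0.037 (SE 0.010, limma adjusted p = 0.00227), which left 18.9 CPM fitted at the higher level and 21.9 CPM at the lower. These falls are shallow beside those of the 12 listed genes of medium spiny neurons, the striatal projection neurons, all of which fell, with a median slope of -0.074. Nos1, at 0.026 (SE 0.018, limma adjusted p = 0.225), and Calb2, at 0.029 (SE 0.016, limma adjusted p = 0.118), did not pass. With oligodendrocyte and astrocyte scores as terms Nos1 rose with 0.049 (limma adjusted p = 0.00264), and on a cortical score in place of Slc17a7, which has another scale, with 0.12 (limma adjusted p = 0.00539). Over all 159 libraries, with no Drd1 minimum, the slope of Pvalb was 0.034 and lost its call (limma adjusted p = 0.351).

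Correlations over the 147 libraries gave the same order, in 9 relations computed. They use the same log2 values as the slopes, so they are no separate check. The square of Pearson's r is the share of variance given above. Pearson's r with Slc17a7 was 0.96 for Cck (Spearman's rho 0.97), 0.89 for Vip (rho 0.94) and 0.73 for Pvalb (rho 0.78). The smallest p that 100000 permutations can give is 1e-05, and both coefficients of these 3 genes and of Npy and Chodl reached it. Npy had an r of 0.38 and a rho of 0.40, and Sst an r of 0.37 (permutation p = 2e-05) and a rho of 0.40. Chodl had an r of -0.37 and a rho of -0.45, and Lhx6 an r of -0.28 (permutation p = 0.00073) and a rho of -0.34 (permutation p = 3e-05). Calb2 had an r of 0.15 (permutation p = 0.0674) and a rho of 0.15 (permutation p = 0.0792), and Nos1 an r of 0.12 (permutation p = 0.143) and a rho of 0.091 (permutation p = 0.271). Without the 2 libraries farthest from the median of Slc17a7, r was 0.96 for Cck, 0.90 for Vip, 0.73 for Pvalb, 0.39 for Sst, 0.38 for Npy, 0.17 for Calb2, 0.094 for Nos1, -0.30 for Lhx6 and -0.38 for Chodl.

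**Figure D2:**
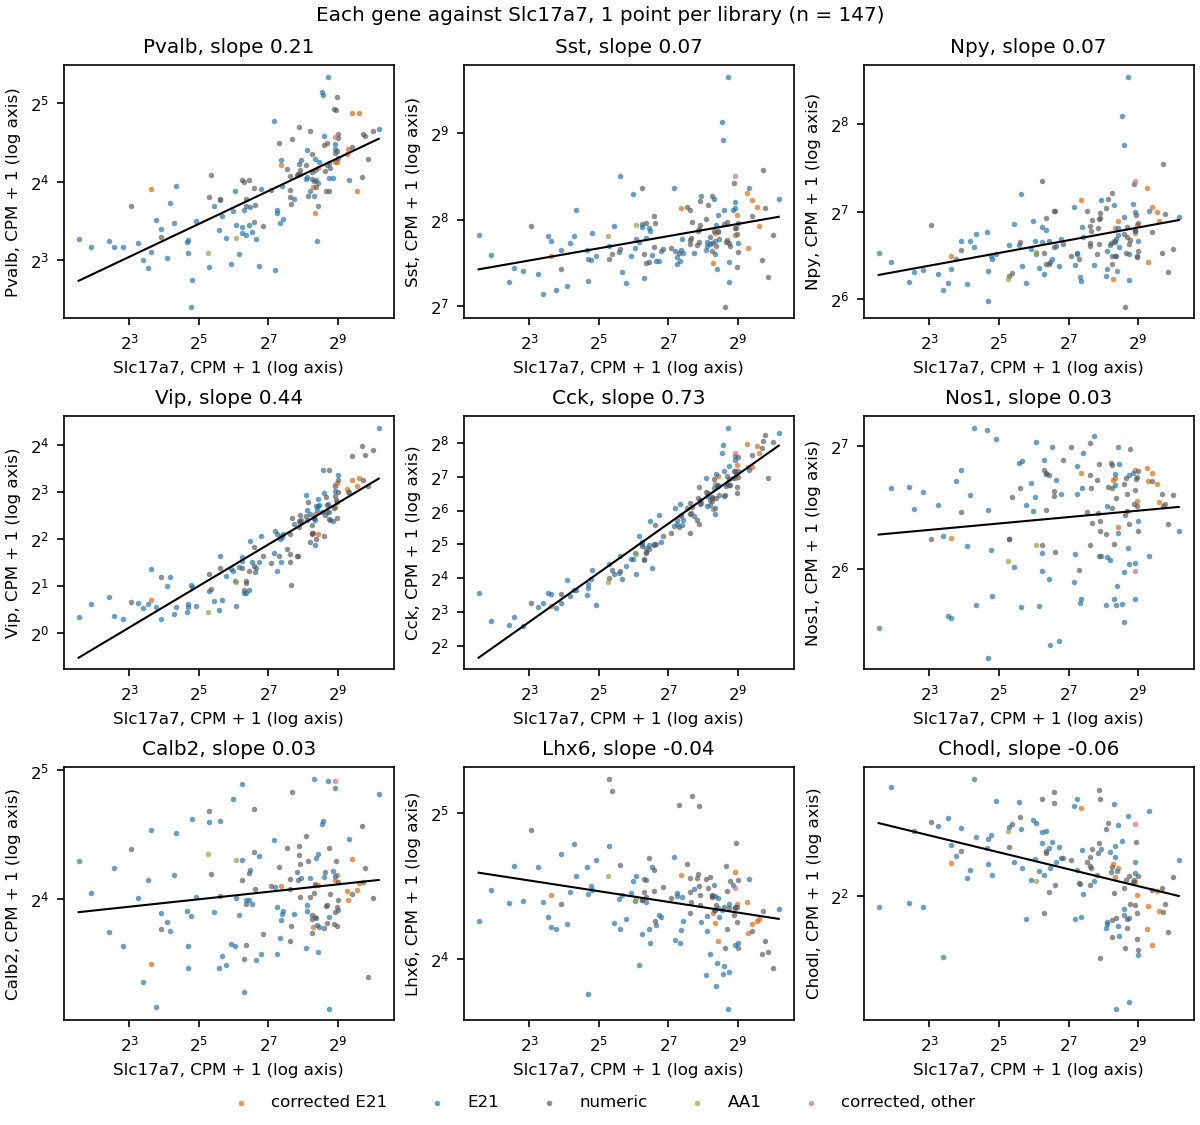
Each gene against Slc17a7, both as CPM + 1 on log axes, 1 point per library (n = 147), coloured by label format; lines are the fitted slopes. Cck and Vip climb along the line, Lhx6 and Chodl slope down slightly, and the points of Nos1 and Calb2 show no slope that passed the test.

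Within label formats, taken as possible batches, the relations of Cck, Vip and Lhx6 kept their direction in each, as did those of Pvalb, Sst, Npy and Chodl, though not all passed in each. The slope of Cck was 0.78 in 12 corrected E21 libraries, 0.71 in 76 E21 libraries and 0.76 in 56 numeric ones. That of Vip was 0.44, 0.42 and 0.50 in the same order, and both genes passed in all 3 formats. Pvalb had 0.099 in corrected E21 libraries (limma adjusted p = 0.293), 0.20 in E21 and 0.18 in numeric ones, and passed in E21 and numeric.

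Sst and Npy passed only within E21, a difference between formats that itself did not pass. Sst had slopes of 0.073 (limma adjusted p = 0.241) in corrected E21, 0.090 in E21 and 0.031 (limma adjusted p = 0.385) in numeric libraries. Npy had 0.062 (limma adjusted p = 0.435) in corrected E21, 0.087 in E21 and 0.020 (limma adjusted p = 0.620) in numeric libraries. Lhx6 had -0.031 (limma adjusted p = 0.514) in corrected E21, -0.042 in E21 and -0.11 in numeric libraries. Chodl had -0.088 (limma adjusted p = 0.228) in corrected E21, -0.046 in E21 and -0.12 in numeric libraries, and like Lhx6 passed in both large formats. Calb2 had 0.10 (limma adjusted p = 0.0201) in corrected E21, 0.041 in E21 and -0.029 in numeric libraries, and Nos1 had 0.068, -0.019 and 0.025, none of which passed. Pearson's r with Slc17a7 in the 12 corrected E21 libraries was 0.81 for Calb2, beside a rho of 0.41.

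In a test of the difference of slopes, E21 minus numeric, 0 of the 9 genes passed in limma, where 1.16% of all tested genes did. At an unadjusted p under 0.05, Lhx6 (0.064, SE 0.025, limma p = 0.0121, adjusted p = 0.205) and Chodl (0.072, SE 0.035, limma p = 0.0404, adjusted p = 0.320) differed, both less steeply negative in E21 libraries.

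**Figure D3:**
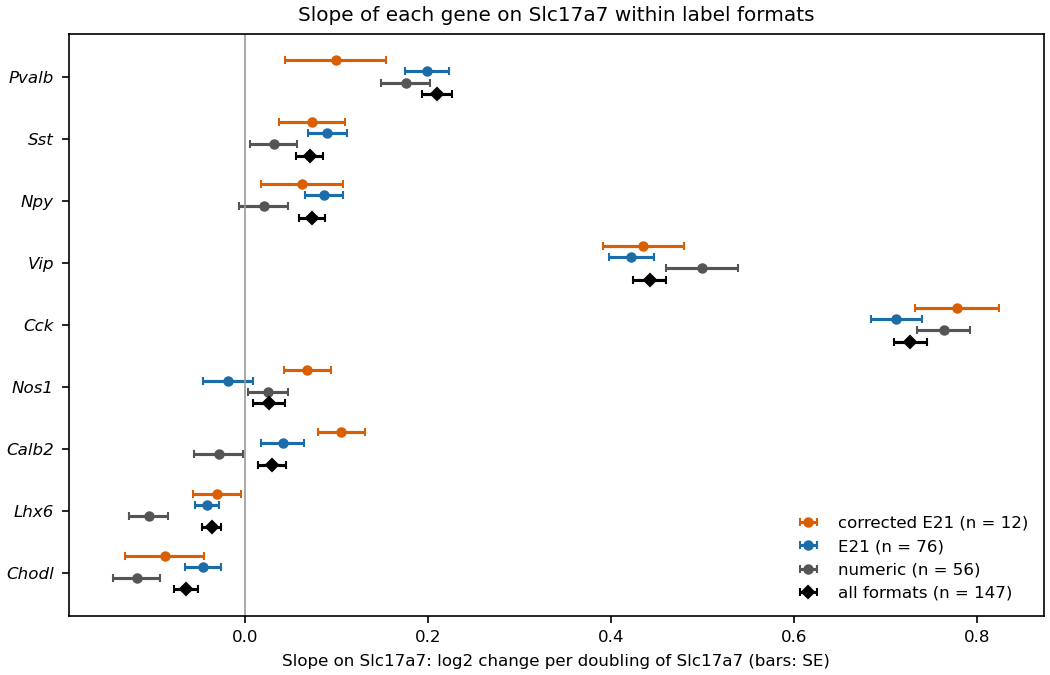
Slope of each gene on Slc17a7, in log2 change per doubling, with its SE as bars, within 12 corrected E21, 76 E21 and 56 numeric libraries and over all 147. Cck and Vip stand far to the right of 0 in every format, and Lhx6 and Chodl lie to the left.

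Levels also differed between formats, together with Slc17a7. E21 libraries had 1.92, 89.1 and 1148 CPM of Slc17a7 as lowest, median and highest value, and numeric libraries 7.26, 254 and 1022 CPM. The change was -1.39 (log2, SE 0.31, limma adjusted p = 0.000167). Cck, Vip, Pvalb, Nos1 and Lhx6 were lower in E21 libraries, 5 of 9 genes, where 26.6% of all tested genes were lower. The ranges of the formats overlapped for every one of the 9 genes. Over all genes, 1878 were higher and 4072 lower in E21, a split that was 2887 to 2898 with median-of-ratios scaling and 3175 to 2791 with quantile normalization, and the 5 calls held in both.

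Cck ran from 5.03 through a median of 32.8 to 348 CPM in E21 libraries, and from 8.61 through 79.8 to 297 CPM in numeric ones, a change of -0.88 (log2, SE 0.24, limma adjusted p = 0.00169). Vip had a median of 1.85 CPM in E21 and 3.56 CPM in numeric libraries (-0.53, SE 0.16, limma adjusted p = 0.00414). With Slc17a7 as a term neither peptide passed, at 0.13 for Cck (SE 0.078, limma adjusted p = 0.171) and 0.084 for Vip (SE 0.079, limma adjusted p = 0.395).

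Pvalb, Nos1 and Lhx6 were lower in E21 libraries also at equal Slc17a7. These are 3 of 9 genes, a count near the 32.4% of all tested genes that were lower. This fit was run only with CPM scaling, where 2024 genes were higher and 4963 lower. Pvalb ran from 4.30 through 11.2 to 39.4 CPM in E21 libraries and from 8.82 through 16.1 to 32.7 CPM in numeric ones. Its change was -0.47 (log2, SE 0.087, limma adjusted p = 7.91e-06), and -0.21 with Slc17a7 as a term (SE 0.069, limma adjusted p = 0.00951). Nos1 ran from 37.9 through 78.1 to 141 CPM in E21 libraries and from 62.7 through 95.6 to 129 CPM in numeric ones, so that the E21 libraries reached further both up and down. The change of Nos1 was -0.25 (SE 0.069, limma adjusted p = 0.00190), and -0.26 at equal Slc17a7 (SE 0.074, limma adjusted p = 0.00281). Lhx6 ran from 11.6 through 19.4 to 26.6 CPM in E21 libraries and from 14.4 through 20.6 to 36.6 CPM in numeric ones. Its change was -0.15 (SE 0.043, limma adjusted p = 0.00346), and -0.23 at equal Slc17a7 (SE 0.042, limma adjusted p = 1.02e-05).

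Corrected E21 libraries were set against E21 libraries to see whether labels assigned from genotype went with a difference. Slc17a7 was 2.01 higher in them (log2, SE 0.55, limma adjusted p = 0.00714), from 11.4 through 489 to 781 CPM. Pvalb, Vip, Cck and Nos1 were higher, 4 of 9 genes, where 9.35% of all tested genes were higher. All genes split into 1433 higher and 491 lower, or 1044 and 849 with median-of-ratios scaling and 1078 and 959 with quantile normalization. Cck ran from 7.98 through 142 to 250 CPM in corrected E21 libraries, against 5.03, 32.8 and 348 CPM in E21 libraries, a change of 1.55 (SE 0.42, limma adjusted p = 0.00656). Vip had a median of 6.20 CPM in corrected E21 and 1.85 CPM in E21 libraries (0.94, SE 0.27, limma adjusted p = 0.0132), and Pvalb 17.8 CPM in corrected E21 and 11.2 CPM in E21 libraries (0.55, SE 0.15, limma adjusted p = 0.00954).

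Nos1 had a median of 105 CPM in corrected E21 libraries, which ran from 75.3 to 113 CPM, and of 78.1 CPM in E21 libraries. Its change was 0.34 (SE 0.12, limma adjusted p = 0.0474) and lost its call with median-of-ratios scaling, at 0.31 (limma adjusted p = 0.0737). At equal Slc17a7 Nos1 was the 1 gene of the 9 that passed, at 0.35 (SE 0.13, limma adjusted p = 0.0448). That count is near the 14.2% of all tested genes that were higher. Pvalb was then at 0.17, Cck at 0.089 and Vip at 0.050, none of which passed.

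The 9 genes were next compared with each other at equal Slc17a7 and format, in 144 libraries of the 3 main formats and 36 pairs. Sst and Npy were by far the closest pair, with a partial r of 0.91. Among 15331 genes, Npy was the gene nearest to Sst and Sst the gene nearest to Npy. The slope of Sst on Npy was 0.90 (SE 0.034, limma adjusted p = 6.08e-53). Sst over Npy lay between 1.67 and 3.13 in every library of the 147, with a median of 2.17 and an SD of 0.15 on the log2 scale, the smallest of the pairs. The ratio had a median of 2.12 in corrected E21, 2.20 in E21 and 2.14 in numeric libraries. Without the 3 libraries of highest Sst the partial r was 0.86.

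Background shares are needed to read the other pairs, because a large part of all genes moves with most of the 9. At an adjusted p under 0.05, 70% of all tested genes passed with Sst as predictor, 61.9% with Npy, 75.7% with Nos1, 65.6% with Calb2, 64% with Cck, 45.6% with Pvalb, 42.9% with Lhx6, 21% with Vip and 13.7% with Chodl. Of the 8 other genes, 6 passed with Sst, 5 with Npy, 5 with Nos1, 8 with Calb2, 7 with Cck, 3 with Pvalb, 5 with Lhx6, 4 with Vip and 4 with Chodl. For Sst, Npy, Nos1 and Pvalb the share is close to that of all genes or below it. Without the 3 libraries of highest Sst, 1212 genes passed with Pvalb as predictor, against 6998 with them. For Chodl the 4 that passed were Sst, Npy, Calb2 and Lhx6, all in the positive direction.

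Among the peptides and calcium buffers, Sst and Calb2 had a partial r of 0.60, Cck and Vip 0.57, Npy and Calb2 0.46, Cck and Sst 0.47, and Pvalb and Sst 0.45. Without the 3 libraries of highest Sst the last of these was 0.25, that of Cck and Sst 0.29, and that of Pvalb and Npy 0.24, against 0.44 with them, and the slope of Npy on Pvalb lost its call (limma adjusted p = 0.0539). Chodl went with Calb2 at 0.46, with Lhx6 at 0.41, with Npy at 0.37 and with Sst at 0.36. Lhx6 and Nos1 had 0.40. At equal Slc17a7 and format Nos1 ran against Cck at -0.52, Calb2 at -0.36 and Sst at -0.29, and its partial r with Npy was -0.094 (limma adjusted p = 0.302). With neither Slc17a7 nor format as a term, Nos1 and Cck had an r of -0.030 and the slope of Nos1 on Cck lost its call (limma adjusted p = 0.777).

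The largest common axis of the residuals of all genes went with several of these genes. This first principal component held 26.4% of the residual variance over 144 libraries. Its r was 0.80 with Nos1 and 0.30 with Lhx6, and -0.65 with Sst, -0.57 with Calb2, -0.56 with Cck, -0.48 with Npy, -0.35 with Pvalb, -0.23 with Vip and -0.094 with Chodl. Across 15328 genes, which are not independent replicates, its loadings had a Spearman rho of 0.49 with the RefSeq span of the gene. Nos1 has the longest span of the 9, at 180361 bases, and Sst the shortest, at 1278 bases. Between them the genes do not line up by span. Calb2, at 27010 bases, has an r of -0.57, Lhx6, at 23836 bases, one of 0.30, and Chodl, at 22313 bases, one of -0.094. What this axis is, and its part in the pairs, was not tested.

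With the component as a further term, chosen after the data were examined, the partial r of Nos1 with Npy, Sst, Pvalb and Calb2 changed sign, to 0.57, 0.52, 0.37 and 0.19. With Cck (-0.13) and Vip (-0.14) it stayed negative but no longer passed (limma adjusted p = 0.177 and 0.140), and with Lhx6 (0.27) and Chodl (0.27) it stayed positive. Sst and Npy stayed at 0.90 and Cck and Vip at 0.55. Calb2 and Lhx6 reached 0.56, against 0.27 without the component, and Calb2 and Chodl 0.49. Cck and Sst dropped to 0.16.

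**Figure D4:**
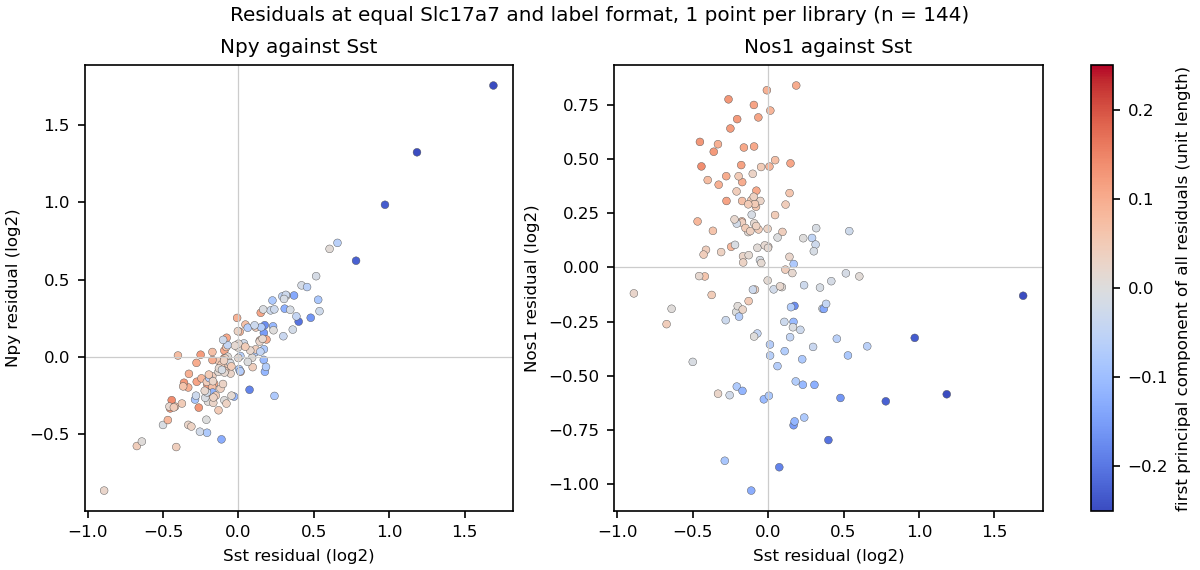
Residuals (log2) of Npy and of Nos1 against those of Sst at equal Slc17a7 and label format, 1 point per library (n = 144), coloured by the first principal component of the residuals of all genes, from low (blue) to high (red). Npy rises with Sst at a partial r of 0.91, and Nos1 slopes down over all points (-0.29) while the colour runs from blue at low Nos1 to red at high Nos1.

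**Figure D5:**
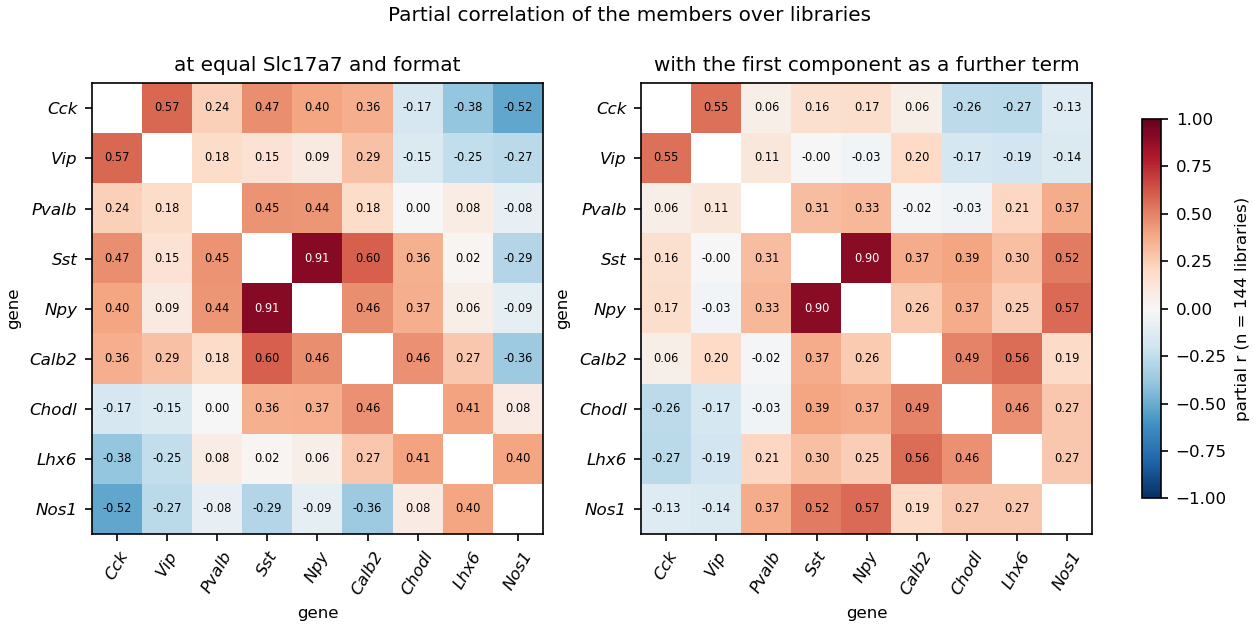
Partial correlation of each pair of the 9 genes over 144 libraries, at equal Slc17a7 and format (left) and with the first principal component as a further term (right); red is positive and blue negative. Sst and Npy stay at 0.91 and 0.90, and Nos1 with Sst changes from blue (-0.29) to red (0.52).

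The genes most like each member were ranked by partial r over the same 144 libraries, leaving out symbols made from locus numbers. Pvalb was nearest to Vamp1, a vesicle SNARE protein gene (0.69), and Sncb (0.68), with Zfp385a and Rell2 (both 0.64) also among its nearest genes. After Npy, Sst was nearest to Atp6v1g2, a subunit gene of the vacuolar proton pump (0.84), then Eri3 (0.83), Bex3 and Bex2 (both 0.82) and Stmn3 (0.82). Npy shared Bex3 (0.76) and Atp6v1g2 (0.75) with it, beside Nsfl1c (0.76), Hmox2 (0.75) and Lypla2 (0.73). Calb2 was nearest to Fxyd6 (0.81), Pnck (0.81), Nnat (0.79), Hpcal1 (0.78) and Ndn (0.77).

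Vip was nearest to Syt17 (0.68), Rtn4r, the Nogo receptor gene (0.64), Car10 (0.63), Bdnf, the neurotrophin gene (0.63), and Khdrbs3 (0.62). Cck was nearest to Igsf21 (0.72), Ttc9b (0.72), Arhgdig (0.71), Nbl1 (0.71) and Efhd2 (0.70). Nos1 was nearest to Cacna1c, a calcium channel gene (0.93), and the NMDA receptor subunit genes Grin2a (0.92) and Grin2b (0.89), with Celsr2 (0.91) and Tanc2 (0.90). Lhx6 was nearest to Gpr165 (0.70), Clcn5 (0.61), Tmem130 (0.61), Slc5a7, the choline transporter gene of cholinergic neurons (0.61), and Gbx2 (0.61). Chodl was nearest to Vwa5al1 (0.62), Calcr, the calcitonin receptor gene (0.59), Dio3 (0.58), Fndc9 (0.54) and Zcchc12 (0.54).

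With the component as a further term, some of these neighbours changed. Pvalb was then nearest to Nefh and Nefm, which encode neurofilament subunits (0.72 and 0.71), Hapln4 of the perineuronal matrix (0.68), the sodium channel gene Scn1a (0.66) and the potassium channel gene Kcnc1 (0.66). Lhx6 was nearest to Lhx8, a transcription factor gene of cholinergic neurons (0.72), and Cck to Neurod6, a transcription factor gene of cortical projection neurons (0.73). Vip kept all 5 of its neighbours, led by Syt17 (0.68).

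Other genes of the same pathways were taken from lists, and their slopes on Slc17a7 are set beside the 20.4% of genes that rose and the 23.9% that fell. Of 28 GABA interneuron genes, Lhx6 among them, 13 rose, 9 fell and 6 did not pass, with a median slope of 0.016. Kcnc2, a potassium channel gene of fast-spiking cells, rose with 0.26 (SE 0.014, limma adjusted p = 1.20e-36), and the transcription factor gene Satb1 with 0.17 (SE 0.0086, limma adjusted p = 4.43e-42). Elavl2, an RNA-binding protein gene, rose with 0.18, and Cort, the gene of the somatostatin-like peptide cortistatin, with 0.23. The GABA synthesis and transport genes fell, with Gad1 at -0.034, Gad2 at -0.095 and Slc32a1 at -0.062, and these are also expressed by the projection neurons.

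Of 11 tested receptor genes of the peptides, 5 rose, 2 fell and 4 did not pass, with a median slope of 0.018. The somatostatin receptor genes Sstr3 (0.39, SE 0.016, limma adjusted p = 2.19e-50) and Sstr1 (0.36, SE 0.014, limma adjusted p = 1.07e-52) were the steepest of the list. The Vip receptor gene Vipr1 rose with 0.14, and the Npy receptor gene Npy2r fell with -0.12. The list of related peptide and calcium-binding genes had 2 rises and 3 falls among 7. Adcyap1, which encodes PACAP, a relative of Vip, rose with 0.35, and Cort, also in the interneuron list, with 0.23, while the calbindin gene Calb1 fell with -0.13 and the dynorphin gene Pdyn with -0.081.

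Peptide processing genes changed little. Of 10, 4 rose and 2 fell, with slopes between -0.073 for Chga, a granin gene, and 0.054 for the convertase gene Pcsk1, and Cpe, the carboxypeptidase gene, had 0.042. Of 10 listed genes of nitric oxide signalling, 7 fell, 1 rose and 2 did not pass, with a median slope of -0.037. Prkg1, a cyclic GMP-dependent kinase gene, fell with -0.11, Pde2a, a phosphodiesterase gene, with -0.051, and the guanylyl cyclase gene Gucy1b1 with -0.057, while the phosphodiesterase gene Pde5a rose with 0.083.

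Markers of some other cell types moved along the same axis. Of 11 cortical glutamatergic genes 10 rose, with a median slope of 0.43, led by the transcription factor genes Tbr1 (0.78), Neurod2 (0.70) and Neurod6 (0.69) and by Nrn1 (0.59). Of 7 cholinergic interneuron genes 6 fell, among them Lhx8 (-0.099) and Chat (-0.079), while Zic4 (0.072) rose. None of the 8 oligodendrocyte, 4 oligodendrocyte precursor, 7 microglia or 5 endothelial genes passed in limma, 3 oligodendrocyte genes and 1 endothelial gene having an unadjusted p under 0.05, whereas 3 of 7 astrocyte and 4 of 8 mural and meningeal genes rose. The part of these cells in the slopes of the 9 genes was not tested beyond the alternatives given with them.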

How the data were processed

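PolyA RNA of the nucleus accumbens core was sequenced, 1 library per rat identifier. The submitters' processing notes name kallisto 0.48 as the quantifier. Not given in the sources used here are the annotation, genome build, strand and the step between transcripts and genes. Per gene, the authors deposited log2(expected count + 1), unscaled for library size, a unit read from the values. They were turned back to expected counts, which come from pseudoalignment, so genes that share reads with copies or overlapping neighbours are uncertain. Counts were scaled to a sum of 1000000 (CPM), and log2(CPM + 1) was analysed, which understates changes of low genes, Vip and Chodl among them. Totals were 14.6 to 61.2 M expected counts, so 1 CPM stood for 14.6 to 61.2 counts. No pair of libraries correlated above 0.994, so all were kept as separate samples.

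Tests used limma 3.58.1 in R 4.3.3, its moderated test with an intensity trend, on both sides, with Benjamini-Hochberg adjustment over all genes of a mean of at least 1 CPM, at an adjusted p of 0.05. The tests were checked on simulated data. Permutation tests were on both sides with 100000 resamples. Alternatives were 2 other scalings, a pseudocount of 0.1, no filter, a Drd1 minimum of 200 CPM or none, further terms and subsets of libraries. Members and gene lists were chosen with earlier results of these data known. The text names all members, up to 4 genes of each list with the smallest limma p and the 5 genes of highest partial r per member; Gad1, Gad2, Slc32a1 and Pcsk1 were named after their values were seen, as were genes nearest with the principal component as a term. A few genes within this rule are not reported here. Names, spans and promoters are from RefSeq, build GRCr8, where 38278 symbols of the table occur. Other steps ran in Python 3.11.15 with scipy 1.17.1, pandas 2.3.3, numpy 2.4.6 and matplotlib 3.10.9.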

Additional observations from a re-analysis of the deposited data

Results flagged for a closer look

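The 12 libraries with under 100 CPM of Drd1 were outside every comparison, and some of the 9 genes lay above the highest level of the 147 libraries there. Of these 12, 11 had at least 100 CPM of Th (the gene of tyrosine hydroxylase, which dopamine neurons need to make dopamine), 10 of them numeric and 1 E21. Calb2 reached 29.6 CPM in the 147 libraries and lay between 295 and 550 CPM in the 11. Pvalb reached 39.4 CPM in the 147 libraries and lay between 40.4 and 117 CPM in the 11, so that for Pvalb the highest of the set and the lowest of the 11 were close. For 4 genes the 147 libraries lay above all 11. Sst was at least 126 CPM in the 147 libraries and 8.19 to 64.7 CPM in the 11, and Npy at least 59.2 CPM in the 147 and 6.76 to 21.3 CPM in the 11. Lhx6 was at least 11.6 CPM in the 147 libraries and at most 0.839 CPM in the 11, and Chodl at least 1.20 CPM in the 147 and at most 0.787 CPM in the 11. The remaining library, numeric library 3, had 1993 CPM of Slc17a7. Cck reached 348 CPM in the 147 libraries and was 567 CPM in this library, and Vip reached 19.7 CPM in the 147 and was 46.8 CPM in it. Npy was at least 59.2 CPM in the 147 libraries and 44.6 CPM in it, and Chodl at least 1.20 CPM in the 147 and 1.14 CPM in it. Its Sst (154 CPM), Calb2 (15.4 CPM), Lhx6 (19.4 CPM), Pvalb (36.7 CPM) and Nos1 (92.9 CPM) were within the range of the set.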

How the results depend on the processing

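No paired analysis was possible because the replicate numbers only name libraries in accession order. Of 425 values recomputed under alternatives, 21 turned sign, 22 kept their direction but lost their call, 5 gained one and 15 counts of genes moved by more than 1.5 times, and the others held. The slopes of Cck and Vip passed under every alternative run.

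Without a Drd1 minimum the slopes on Slc17a7 of Calb2 (-0.24), Lhx6 (0.20) and Chodl (0.043) turned, as did the E21 minus numeric changes of Sst (0.40), Npy (0.33) and Lhx6 (0.41) and the corrected E21 minus E21 change of Calb2 (-0.049), and 764 genes were called between corrected E21 and E21. The same setting ended the calls of the slope of Pvalb (0.034, limma adjusted p = 0.351) and of the corrected E21 minus E21 changes of Pvalb (0.50, limma adjusted p = 0.153) and Vip (0.92, limma adjusted p = 0.0520). The slope of Nos1 gained a call with glial scores as terms (0.049) and on the cortical score (0.12), and was -0.0022 with label format as a term and -0.019 in E21 libraries, and that of Calb2 -0.029 in numeric ones. Slopes were called for 4463 genes in numeric and 1303 in corrected E21 libraries, which hold fewer libraries, against 6793. With Slc17a7 as a term the E21 minus numeric changes of Sst (0.064), Npy (0.0061), Vip (0.084), Cck (0.13) and Chodl (-0.024) and the corrected E21 minus E21 changes of Sst (-0.011) and Calb2 (-0.042) turned. The corrected E21 minus E21 changes of Calb2 and Lhx6 were -0.015 and -0.020 with median-of-ratios scaling and -0.027 and -0.027 with quantile normalization. With the log2 total as a term 3294 genes were called for E21 minus numeric, against 5950.

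With the first principal component as a further term, slopes were called for 3338 genes on Pvalb, 1516 on Vip, 1221 on Cck, 3205 on Calb2, 2910 on Lhx6 and 3559 on Chodl. Pvalb called 1212 genes without the 3 libraries of highest Sst, against 6998, Vip 7806 and Chodl 4089 with neither Slc17a7 nor format as a term, Chodl 3415 with median-of-ratios scaling and Lhx6 3046 with glial scores as terms. Except where stated, the cause was not tested. The call of Nos1 between corrected E21 and E21 was also lost without a filter (limma adjusted p = 0.0837), without a Drd1 minimum (0.0953), with the log2 total as a term (0.0670) and, by a margin in the fifth decimal, with a Drd1 minimum of 200 CPM.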
